A study of Mus musculus with 2 samples.

Results

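Rab GTPases are small membrane switches that steer vesicle traffic, and their transcripts were followed here in RANKL-treated cultures of mouse bone marrow cells. The genes were chosen by name alone: every symbol made of Rab, a number and at most a letter and a further digit, whatever its level, which gave 57 of the 26037 genes in the table. Control and MMP9_KO were represented by 1 library each, so each group had n = 1 and no value below has a replicate check. Marrow came from C57BL/6 mice aged 6 to 8 weeks and was first cultured in medium holding 10% serum and a low dose of M-CSF, 5 ng/ml. Non-adherent cells were then held for 3 days in M-CSF at 30 ng/ml, and both cultures received RANKL, the cytokine that turns macrophages into osteoclasts, for 3 days. MMP9_KO is the name in the labels for the culture in which the matrix metalloproteinase MMP9 was targeted. Mmp9 reads remained there, 163 against 5609 in Control. The column headings add "NCsh" for Control and "sh" for MMP9_KO, letters that the labels do not explain, so a deletion and a silencing of Mmp9 cannot be told apart from the labels. Pooling of animals and the number of cultures are not stated either.

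A Rab protein is active when it holds GTP and is carried on a membrane by a lipid tail. Exchange factors load it with GTP, GTPase-activating proteins switch it off, and a dissociation inhibitor takes it back through the cytosol. Each Rab marks its own compartment: Rab5 the early endosome, Rab11 the recycling endosome, Rab7 the late endosome and lysosome, Rab1 the path from the endoplasmic reticulum to the Golgi, and Rab3 and Rab27 secretory vesicles. Osteoclasts resorb bone by sending lysosome-like vesicles to a ruffled membrane facing the bone, a step for which Rab7 is known to be needed.

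The libraries held 20678441 reads in Control and 17741432 in MMP9_KO. Levels are normalised read counts, which are reads multiplied by 1 factor per library and not divided by gene length. Brackets after a fold hold its exact 95% interval, which covers counting error only. A gene was compared when its mean over both libraries was at least 1. The words higher and lower in counts of genes mean a difference of 2-fold or more, with a pseudocount of 1 added to both levels. Mmp9 itself was 35.99-fold lower (30.8 to 42.3) in MMP9_KO, at 139 in Control and 3.87 in MMP9_KO. The cultures also differed in their osteoclast and macrophage transcripts. Of 9 osteoclast markers, all 9 were lower, against 9.58% of all compared genes. Their summed level was 6685 in Control and 391 in MMP9_KO. The labels call both cultures primary osteoclasts, and in MMP9_KO the osteoclast enzyme genes Acp5 and Ctsk stood at 114 and 42.9, against 1828 and 3745 in Control. Summed macrophage markers stood at 819 and 1215, with 4 of 5 compared genes higher. Dendritic cell markers stood at 16.2 and 2.30. Neutrophil, mast cell, platelet, T cell, B cell and stromal markers summed to at most 1.14 in either library, and the 4 stromal genes had no read. The part of these marker differences in the Rab values was not tested, and in bulk RNA fewer cells of a type and less RNA per cell cannot be told apart.

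Most compared Rab genes were within 2-fold between the libraries, and as deposited the majority stood below Control in MMP9_KO. Of the 57 genes, 39 were compared, 11 had reads but stayed under the level limit, and 7 had no read in either library. Among the 39 compared, 2 were lower by at least 2-fold (Rab13 and Rab24), 0 were higher and 37 were within 2-fold. Over all 11126 compared genes 9.58% were lower and 4.0% higher, 13.6% in either direction, beside 5.13% lower among the Rabs; a difference of so few genes from the background is not a result about the family. No test was possible with 1 library per group, hence no p is given for the count of 0. The median log2 ratio of the 39 was -0.28, against -0.16 over all compared genes. The ratio was below 0 in 31 of them, against 62.7% of all compared genes, but that direction depended on scaling. With the libraries scaled to equal sums, 20 of 39 were below 0, and 43.3% of all compared genes. After centring by GC content, the share of G and C bases in the transcript, 26 of 39 were below 0, against 49.9%. Without a pseudocount 4 of 39 were lower by at least 2-fold, Rab22a and Rab34 being added, against 12.2% of all compared genes, and 0 were higher, against 4.86%. Reads of the whole family made up 0.308% of Control and 0.286% of MMP9_KO.

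**Figure D1:**
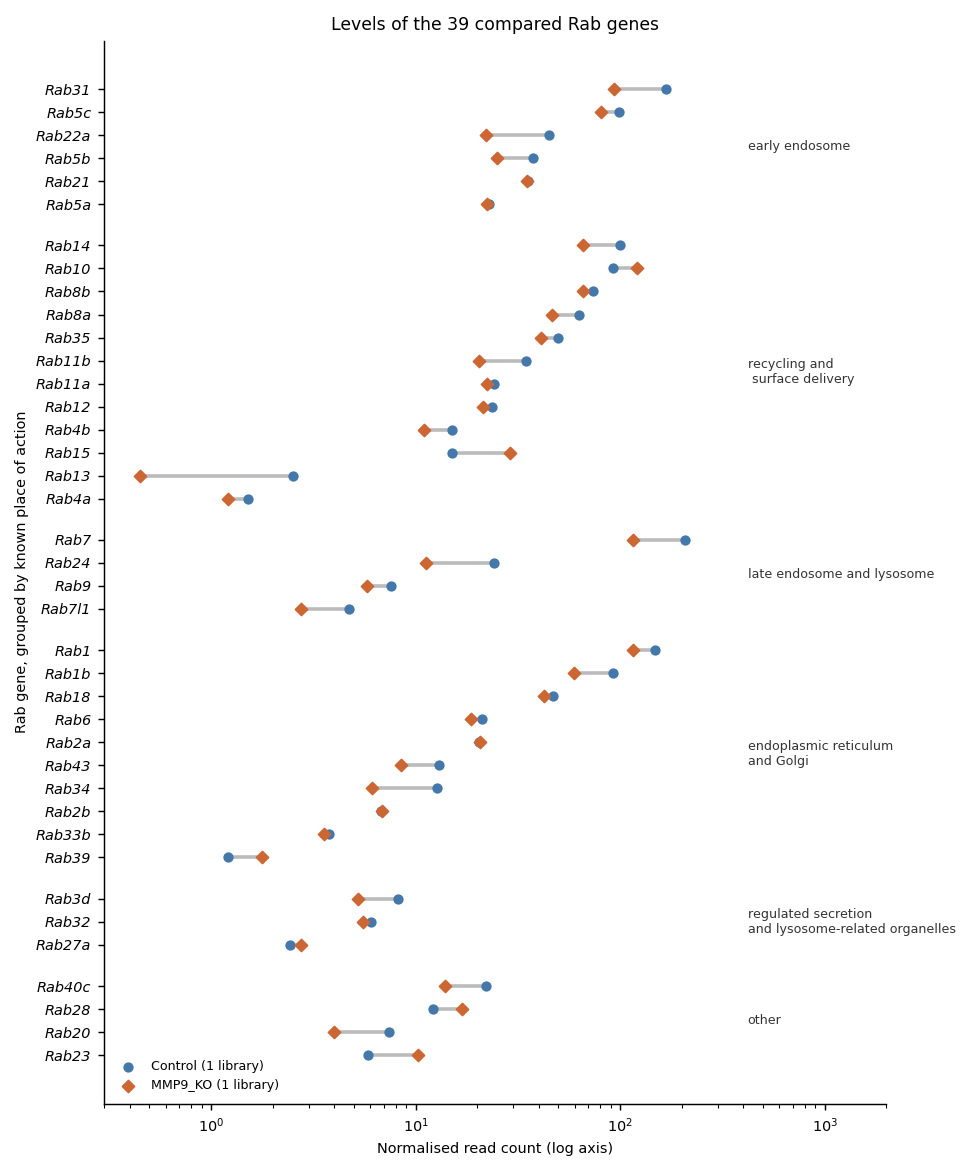
Normalised read count (log axis) of each of the 39 compared Rab genes in the Control library (circles) and the MMP9_KO library (diamonds), grouped by the known place of action of the protein. Rab7 was the highest in Control at 208, and only a few genes, such as Rab15 and Rab10, stood higher in MMP9_KO.

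Rab genes of the late endosome and lysosome were the group with the lowest median. All 4 compared members stood below Control, with a median log2 ratio of -0.72, and all 4 stayed below 0 with each scaling and with centring by GC content. Of all compared genes, 62.7% were below 0 as deposited, and 43.3% to 50% with these alternatives. Rab7, which drives fusion with lysosomes, was 208 in Control and 116 in MMP9_KO, resting on 8375 and 4894 reads. It was thus 1.79-fold lower (1.73 to 1.85), with the largest loss of level of any Rab gene. Rab7 (ENSMUSG00000079477) lies on chromosome 6, from 87999106 to 88045270 in GRCm38. Of its transcript, 17.8% of the 31-base words also occur in the pseudogene Rab7-ps1, and 7.82% of its exon bases also belong to Gm5577, so part of its reads is uncertain. Rab9, which returns receptors from late endosomes to the Golgi, was 7.603 in Control and 5.796 in MMP9_KO, 1.31-fold lower (1.11 to 1.56). Rab7l1, now named Rab29 and known as a partner of the kinase LRRK2, was 4.75 in Control and 2.76 in MMP9_KO, 1.72-fold lower (1.36 to 2.19). Rab9b, a copy of Rab9, had no read.

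Rab24, an unusual Rab linked to autophagy, was past 2-fold but is the least certain of this group. Its level was 24.2 in Control and 11.3 in MMP9_KO, 2.14-fold lower (1.91 to 2.39), with a log2 ratio of -1.03. Rab24 (ENSMUSG00000034789) is a minus-strand gene of chromosome 13, spanning 55319743 to 55321946 in GRCm38, and 62.4% of its exon bases are also exon bases of Prelid1 on the plus strand. Prelid1, which encodes a mitochondrial lipid carrier, was 142 in Control and 89.2 in MMP9_KO, 1.59-fold lower (1.53 to 1.66). The sources used here do not give whether counting used strand, so reads of these genes cannot be told apart, and the log2 ratio of Rab24 was -0.65 after centring by GC content. Without Rab24 and Rab7, the compared members that share at least 5% of their exon bases with another gene, the group median was -0.48. That median is over 2 genes, Rab9 and Rab7l1, beside -0.43 for the early endosome Rabs. It is not free of shared sequence, given the words that Rab9 shares with Rab9b-ps1.

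Early endosome Rabs split within the group. Rab31, which moves cargo between the Golgi network and endosomes, was 168 in Control and 93.4 in MMP9_KO, 1.801-fold lower (1.73 to 1.87). Rab22a, which acts in endosome sorting and recycling, was 44.7 in Control and 22.2 in MMP9_KO, 2.01-fold lower (1.86 to 2.18), and its log2 ratio of -0.98 placed it just inside the 2-fold limit. These genes stood well apart from Rab21, an integrin-trafficking Rab, at 35.5 in Control and 34.99 in MMP9_KO, and from Rab5a at 22.9 in Control and 22.5 in MMP9_KO. For both of the latter the interval of the ratio included 1. All 6 compared early endosome genes were below 0 as deposited, with a median of -0.43, but 3 of 6 were below 0 with equal sums.

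The 3 Rab5 copies, which share the task of early endosome fusion, differed from each other in their ratios. Rab5b was 37.7 in Control and 25.01 in MMP9_KO, 1.51-fold lower (1.39 to 1.63). Of the Rab5b transcript, 15.7% of the words, of the length used for Rab7, also occur in Gm13991, so part of its reads is uncertain. Rab5c was 98.7 in Control and 81.1 in MMP9_KO, 1.22-fold lower (1.16 to 1.28), and its log2 ratio is the median of the family. Rab5a, given above, had a ratio of 0.9798 (0.894 to 1.07) in MMP9_KO over Control. None of the 3 intervals overlapped another, so by counting error alone Rab5b stood lowest against Control as deposited, then Rab5c, then Rab5a. After centring by GC content the last 2 changed places, with log2 ratios of 0.02 for Rab5c and -0.0084 for Rab5a.

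Recycling and surface delivery held both the lowest and the highest ratio of the 39 compared genes. Rab13, a Rab of epithelial junctions and surface delivery, was 2.51 in Control and 0.451 in MMP9_KO, 5.56-fold lower (3.38 to 9.62). This rests on 101 and 19 reads, and its log2 ratio of -1.27 on the pseudocount scale was the lowest of the 39. Rab13 (ENSMUSG00000027935) is a plus-strand gene of chromosome 3, spanning 90213695 to 90226385 in GRCm38. At the other end Rab15, known from endosome recycling in neurons, was 15.01 in Control and 28.9 in MMP9_KO, 1.93-fold higher (1.75 to 2.13). Its log2 ratio of 0.90 was short of 2-fold as deposited and passed it with each scaling and with centring by GC content, at 1.08 to 1.28. Rab10, which brings the glucose transporter GLUT4 to the cell surface, was 92.5 in Control and 121 in MMP9_KO, 1.31-fold higher (1.25 to 1.36). As deposited, Rab15 and Rab10 were the only 2 of the 12 compared members of this group above Control, but only 6 of 12 were below 0 with equal sums, and 7 with each other scaling and with centring by GC content.

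The other recycling Rabs were lower or near Control. Rab11b was 34.7 in Control and 20.4 in MMP9_KO, 1.704-fold lower (1.56 to 1.86), whereas its copy Rab11a, the main mark of the recycling endosome, was 24.1 in Control and 22.4 in MMP9_KO. Rab14, which acts between endosomes and the Golgi, was 100.4 in Control and 65.9 in MMP9_KO, 1.52-fold lower (1.45 to 1.599). Rab8a, which carries cargo from the Golgi to the surface, was 62.9 in Control and 46.4 in MMP9_KO, and its copy Rab8b was 74.00 in Control and 65.8 in MMP9_KO. Among the fast-recycling Rabs, Rab4b was 15.1 and 11.02, Rab4a 1.52 and 1.21, and Rab35 49.8 and 41.1. Rab12, a Rab of transferrin receptor degradation, was 23.5 and 21.4. Of these, Rab4a and Rab11a had intervals that included a ratio of 1. Rab4b shares 64.97% of its exon bases with the readthrough gene Gm21983 on the same strand, which makes its count uncertain. Rab11b shares 5.37% of its exon bases with Gm17251 on the other strand. Of the Rab11b transcript, 9.8% of the words, of the length used for Rab7, also occur in Rab11b-ps2. Part of the Rab11b reads is therefore uncertain too. The epithelial Rabs were nearly silent: Rab25 had 1 read in Control and 6 in MMP9_KO, and Rab17 had none.

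Rabs of the endoplasmic reticulum and Golgi lay at the median of all genes, at -0.16 for 10 compared members, and at 0.12 with equal sums. Rab1, named Rab1a today, starts transport out of the endoplasmic reticulum and was 148 in Control and 116 in MMP9_KO, 1.27-fold lower (1.22 to 1.32). Its copy Rab1b was 92.4 in Control and 59.8 in MMP9_KO, 1.54-fold lower (1.47 to 1.62). In contrast, Rab2a, which acts in Golgi structure and transport, was 20.4 in Control and 20.7 in MMP9_KO, and its copy Rab2b was 6.78 in Control and 6.84 in MMP9_KO. Both intervals of the ratio included 1. Rab2b overlaps the transcript Gm43766 on the other strand over 59.3% of its exon bases. Rab6, which moves vesicles within the Golgi, was 21.2 and 18.7, with 19.0% of its exon bases also in Mrpl48, and Rab18, found on lipid droplets, 47.2 and 42.7.

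Among the less abundant Golgi Rabs, Rab34 stood out. Rab34, which draws lysosomes towards the cell centre, was 12.7 in Control and 6.15 in MMP9_KO, 2.07-fold lower (1.78 to 2.41), with a log2 ratio of -0.94. After centring by GC content this became -0.38, its transcript being the richest in G and C of the compared Rabs at 59.5%. Rab43 was 13.02 in Control and 8.504 in MMP9_KO, 1.53-fold lower (1.34 to 1.76), but 75.4% of its exon bases also belong to Gm45140. Rab33b, an autophagy partner of Atg16l1, was 3.78 and 3.59, with 18.7% of its exon bases also in Gm38160. Rab39, a Rab of phagosomes, was 1.22 in Control and 1.78 in MMP9_KO on 49 and 75 reads. Rab19, Rab30, Rab33a and Rab39b had at most 4 reads in either library, and Rab36 and Rab6b had none.

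Secretory and lysosome-related organelle Rabs were low, and only 3 of 11 were compared. Rab3d, a secretory-vesicle Rab found in osteoclasts, was 8.17 in Control and 5.25 in MMP9_KO, 1.56-fold lower (1.31 to 1.86). Rab27a, which docks lysosome-related granules at the surface, was 2.44 in Control and 2.76 in MMP9_KO on 98 and 116 reads, with a ratio of 1.13 (0.857 to 1.496). Rab32, which acts in the making of melanosomes and related organelles, was 6.09 in Control and 5.51 in MMP9_KO, with a ratio of 0.905 (0.753 to 1.09). The last 2 intervals include 1, and Rab32 changed sign under each scaling.

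Under the level limit, Rab3a and Rab38 were the members with the most reads, and both stood lower in MMP9_KO. Rab3a, which acts in regulated exocytosis, was 1.24 in Control and 0.238 in MMP9_KO, on 50 and 10 reads, 5.23-fold lower (2.62 to 11.6). Rab38, the sister of Rab32 in melanosome formation, had 11 reads in Control, a level of 0.273, and 0 in MMP9_KO. A count of 0 allows a level of up to 0.0713 there, taking 3 reads as the limit, so Rab38 was at least 3.84-fold lower by that limit. With the counting error of the Control reads included, the lower end of its exact interval was 2.63-fold. Rab27b, Rab44 and Rab26 had 2 to 5 reads in each library, too few for a direction. Rab3b, Rab3c and Rab37 had no read, which allows a level of up to 0.0745 in Control and 0.0713 in MMP9_KO. The mast cell genes, whose granules are known for Rab27b, Rab37 and Rab44, summed to 0.0994 in Control and 0 in MMP9_KO.

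Of the remaining genes, Rab23 and Rab28, which act in or near the primary cilium, stood higher in MMP9_KO. Rab23 was 5.89 in Control and 10.3 in MMP9_KO, 1.75-fold higher (1.49 to 2.06). Rab28 was 12.2 in Control and 16.8 in MMP9_KO, 1.38-fold higher (1.23 to 1.55). Rab20, a phagosome Rab, was 7.38 in Control and 4.01 in MMP9_KO, 1.84-fold lower (1.52 to 2.23), and 25.6% of its exon bases overlap the noncoding E230013L22Rik. Rab40c, part of a ubiquitin ligase, was 22.04 in Control and 13.97 in MMP9_KO, 1.58-fold lower (1.42 to 1.75), and Rab40b had 0 and 4 reads.

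**Figure D2:**
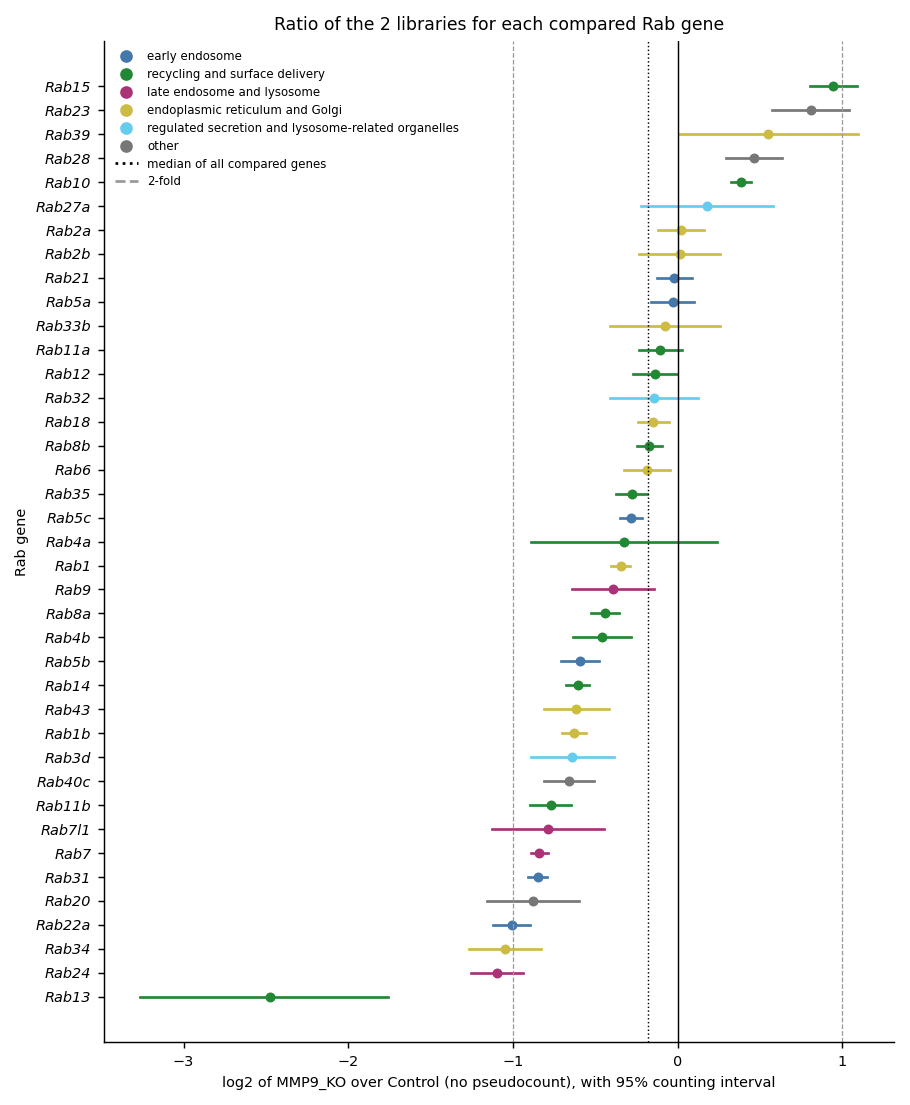
log2 of MMP9_KO over Control without a pseudocount for the 39 compared Rab genes, with exact 95% counting intervals, coloured by place of action; the dotted line is the median of all compared genes and dashed lines mark 2-fold. Rab13 lies alone at the bottom with a wide interval, while 25 intervals lie wholly below 0 and 5 wholly above.

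Counting error was small for most members, and the intervals compare the libraries, not the conditions. The interval of the ratio lay wholly below 1 for 25 of the 39 compared Rab genes, against 50.3% of all compared genes. It lay wholly above 1 for 5, against 26.5%. Those 5 were Rab10, Rab15, Rab23, Rab28 and Rab39. The sign of the log2 ratio was the same as deposited, with each of 3 scalings and with centring by GC content for 26 of the 39, 18 of them below 0 and 8 above. The other 13, including Rab5a, Rab5c, Rab11a, Rab21 and Rab35, changed sign in at least 1 of these.

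Levels of different genes can be compared only per length, so they were divided by the longest annotated transcript in kilobases. On this scale Rab7 was the most abundant Rab in both libraries, at 96.4 normalised reads per kilobase in Control and 53.8 in MMP9_KO. It held 17.4% of the summed per-kilobase level of the 57 genes in Control and 13.1% in MMP9_KO. Next in Control came Rab1 (52.2), Rab5c (50.2), Rab31 (48.4) and Rab1b (48.3), and neighbours in this order had overlapping counting intervals. In MMP9_KO the order after Rab7 was Rab5c (41.2), Rab1 (41.1), Rab10 (34.4), Rab1b (31.3) and Rab31 (26.9), and of these only Rab5c and Rab1 had overlapping intervals. Rab10 moved from place 6 to place 4, and Rab31 from place 4 to place 6. These places depend on the length used. With the mean transcript length Rab7 was again first in both libraries, but Rab1b was second in Control and Rab10 was in places 10 and 7.

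**Figure D3:**
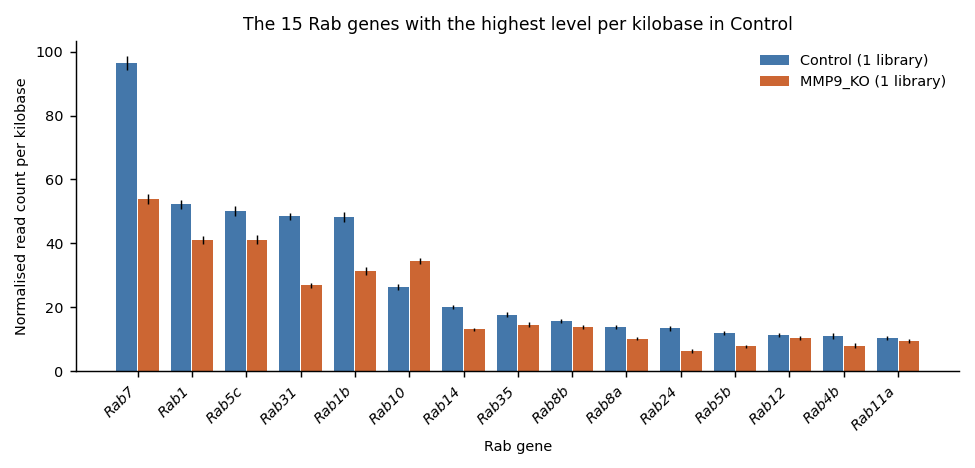
Normalised read count per kilobase of the longest annotated transcript for the 15 Rab genes highest in Control, with bars from 0 and exact 95% counting intervals. Rab7 leads both libraries, and Rab10 is the only one of the 15 with the taller bar in MMP9_KO.

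Copies of the same Rab gave 8 pairs with both genes compared, and in 7 of them the gene richer in G and C had the lower log2 ratio. Pairs with a shared gene, such as those of the 3 Rab5 genes, are not independent. The widest gap was between Rab11a (39.5% GC, log2 ratio -0.10) and Rab11b (48.1%, -0.74), with the uncertainty of the Rab11b reads given above. Rab1 (41.95%, -0.34) and Rab1b (58.9%, -0.62) followed the same order, as did Rab8b (40.6%, -0.17) and Rab8a (49.4%, -0.43). The exception was Rab5b (49.1%, -0.57) against Rab5c (54.7%, -0.28), with the limit on the Rab5b reads given above. In 6 of the 8 pairs the intervals of the ratios did not overlap. They overlapped for Rab4a with Rab4b and for Rab2a with Rab2b, so the order within those pairs is not resolved. After centring by GC content, Rab11b was at -0.57 and Rab11a at -0.18, and Rab5b at -0.45 and Rab5a at -0.0084. Rab1 and Rab1b changed order with centring, as did Rab5a and Rab5c. Rab2a and Rab2b, nearly equal in GC content at 44.4% and 44.5%, had nearly equal log2 ratios of 0.02 and 0.01.

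Base composition moved with the log2 ratio in the whole table as well as among the Rabs. Across the 39 compared Rab genes the Spearman rho with GC content was -0.55 and Pearson's r -0.42, and over 10707 compared genes with a known GC content they were -0.31 and -0.23. These are descriptions across genes that share 2 libraries, and genes are not independent replicates. Centring, in which the median of all genes in each of 20 bins of GC content was subtracted, brought Rab1b to -0.18, above Rab1 at -0.37, and Rab4b to 0.02. Rab13, Rab22a, Rab31 and Rab7 lay farthest below genes of like composition, at -1.11, -0.93, -0.72 and -0.71 after centring. After centring, 1 Rab gene was lower (Rab13) and 1 higher (Rab15) by at least 2-fold, against 6.37% and 5.11% of all compared genes. The part of base composition in these values was not tested beyond this centring.

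**Figure D4:**
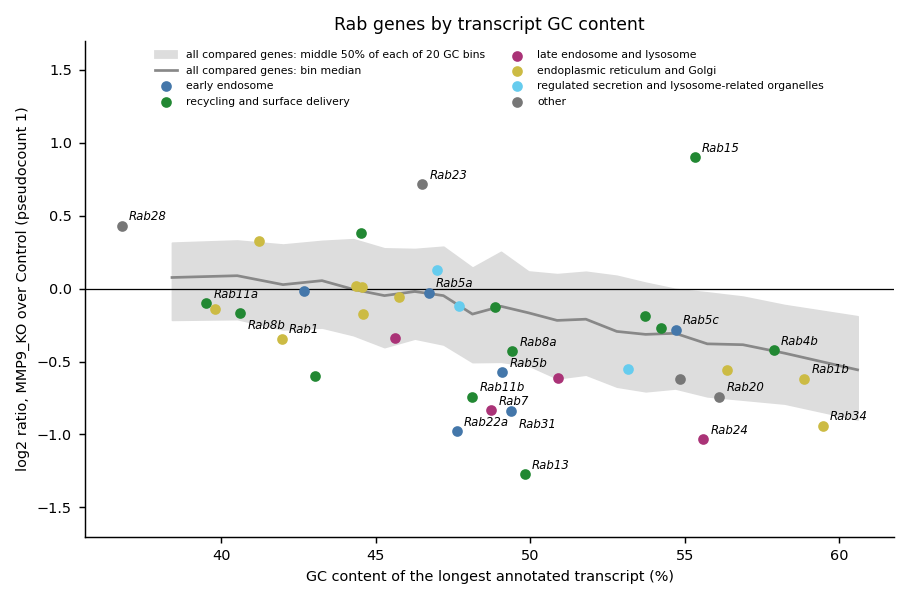
log2 ratio (pseudocount 1) of the 39 compared Rab genes against the GC content of their longest annotated transcript, coloured by place of action; the grey line and band show the median and the middle 50% of all compared genes in 20 GC bins. The grey line falls with GC content, Rab13 and Rab22a lie farthest below it, and Rab15 and Rab23 farthest above.

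Among the proteins that switch Rabs on and off, single genes differed by more than any compared Rab on the log2 scale. Of 35 compared GTPase-activating proteins of the TBC family and its relatives, 8 were lower by at least 2-fold and 0 higher, or 22.9% lower against 9.58% of all compared genes. Their median log2 ratio was -0.46, or -0.19 after centring by GC content. After centring 5 were lower, against 6.37% of all compared genes. With equal sums 5 were lower as well, against 684 of all 11126 compared genes. Tbc1d2, which switches off Rab7, was 16.6 in Control and 2.19 in MMP9_KO, 7.61-fold lower (6.11 to 9.56). Sgsm1 was 51.5 in Control and 10.3 in MMP9_KO, 5.01-fold lower (4.52 to 5.58), and Tbc1d2b was 151 in Control and 36.7 in MMP9_KO, 4.098-fold lower (3.87 to 4.34). The 31 exchange factors included 3 that were higher, or 9.68% against 4.0% of all compared genes, and 2 that were lower, or 6.45% against 9.58%. Their median was -0.15 as deposited but 0.17 after centring by GC content. With equal sums 5 were higher and 0 lower, against 674 and 684 of all 11126 compared genes. Rab3il1, an exchange factor of Rab8 and Rab3 pathways, was 0.398 in Control and 5.796 in MMP9_KO, 14.6-fold higher (8.798 to 25.9). Dennd2d was 6.51 in Control and 21.5 in MMP9_KO, 3.31-fold higher (2.88 to 3.81), whereas Rin3, which activates Rab5 and Rab31, was 52.9 in Control and 21.6 in MMP9_KO, 2.45-fold lower (2.27 to 2.65).

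Effectors, the proteins that bind an active Rab, gave 5 lower and 0 higher of 29 compared, or 17.2% lower against 9.58% of all compared genes. With equal sums 3 were lower and 1 higher, against 684 and 674 of all 11126 compared genes, and the effector median turned from -0.11 to 0.17. Plekhm1, a Rab7 effector whose loss causes osteopetrosis, was 176 in Control and 51.1 in MMP9_KO, 3.45-fold lower (3.29 to 3.63). Rilpl1 was 20.5 in Control and 5.13 in MMP9_KO, 3.99-fold lower (3.43 to 4.66), and the Rab11 effector gene Rab11fip5 was 13.7 in Control and 3.47 in MMP9_KO, 3.95-fold lower (3.29 to 4.78). All 10 genes of the HOPS and CORVET tethers, which act with Rab7 and Rab5, were within 2-fold, with a median of -0.20, or 0.08 with equal sums, and Vps18 the farthest at 131 and 74.7. All 9 genes for the lipid tail and the dissociation inhibitors were within 2-fold as well. Of 27 SNARE genes, which complete membrane fusion, 2 were lower and 0 higher, or 7.41% lower against 9.58%, with a median of -0.34. They were Vamp8 (41.3 and 17.4) and Stx4a (43.9 and 19.5). No SNARE gene was lower with equal sums or with centring by GC content, and 1 with each other scaling. Of all 11126 compared genes, 684 to 799 were lower with the 3 scalings, and 6.37% after centring.

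**Figure D5:**
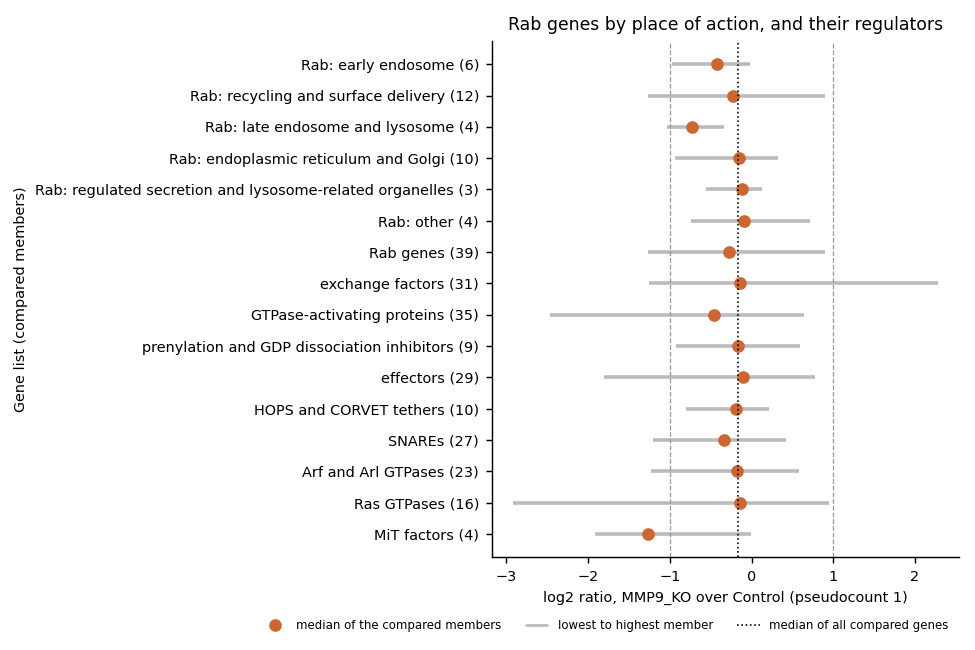
log2 ratio (pseudocount 1) of Rab genes by place of action, of genes that act on Rabs and of other small GTPase families; points are medians of the compared members, whose number is in brackets, grey bars run from the lowest to the highest member, the dotted line is the median of all compared genes and dashed lines mark 2-fold. Late endosome Rabs have the lowest median of the Rab groups at -0.72, and GTPase-activating proteins reach lower values than any compared Rab.

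Promoter sequence was looked at because the MiT transcription factors, which bind the CLEAR element of lysosomal genes, differed between the libraries. Mitf was 70.5 in Control and 27.6 in MMP9_KO, 2.55-fold lower (2.38 to 2.73), and its relative Tcfec was 9.81 in Control and 1.85 in MMP9_KO. Tcfeb was 3.702 in Control and 1.02 in MMP9_KO, while Tcfe3 was 33.2 and 33.2, so that 3 of the 4 were lower, against 9.58% of all compared genes, with a median log2 ratio of -1.27. After centring by GC content 2 of 4 were lower, against 6.37% of all compared genes, Tcfeb being at -0.66. RefSeq windows from 250 bases before to 50 after the start site, on GRCm38.p6, were found for 47 of the 57 Rab genes, 59 windows in all. The exact CLEAR element, the E-box CACGTG with GT before and AC after it, reads the same on both strands and was in 3 of these windows and in 0.326% of all 32851 windows. The 3 genes are shown because their windows carry the exact element. The element is in capitals, with 10 bases on each side, 5′ to 3′ on the strand of the gene:
Rab24, chr13:55321961-55321990, minus strand: cggcgcccgcGTCACGTGACcgggcgtccc
Rab21, chr10:115315604-115315633, minus strand: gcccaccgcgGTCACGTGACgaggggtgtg
Rab5a, chr17:53479127-53479156, plus strand: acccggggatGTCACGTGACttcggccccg

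The element starts at the first transcribed base of Rab24 by RefSeq, inside the Prelid1 gene on the other strand, and it begins 32 bases before the start site of Rab21 and 97 before that of Rab5a. The log2 ratio was -1.03 for Rab24, with the overlap by Prelid1 described above, -0.02 for Rab21 and -0.03 for Rab5a. The E-box alone, searched on both strands, was in 6 Rab windows and in 7.15% of all windows. It occurred in Rab20, Rab21, Rab23, Rab24, Rab27a and Rab5a, which stood on both sides of 0. The AP-1 letters TGANTCA, also on both strands, were in windows of Rab15, Rab34 and Rab39b and in 7.81% of all windows. The core of the interferon-stimulated element, GAAA, any 2 bases and GAAA again, on either strand, was in the window of Rab19 and in 3.44% of all windows. A match of letters is not a bound site, and a link between the MiT factors and the levels of Rab genes was not tested.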

How the data were processed

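Polyadenylated RNA of 1 Control and 1 MMP9_KO culture was sequenced on an Illumina HiSeq instrument, per the labels' protocols. TopHat and mm9 are named per the submitters' processing notes; the sources used here do not give versions, counter, annotation, strand use or normalisation. Both libraries are columns of 1 log2 table deposited by the authors under the name of normalised RPKM. After conversion from log2, 99.98% of Control and 99.99% of MMP9_KO values with a read lay within 0.05 of whole multiples of 1 step per library (0.0248 and 0.0238), so they were read as scaled counts not divided by length. The lowest value is 0.9 of the step and was set to 0. Total reads were 20678441 and 17741432.

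Groups were matched to columns by the headings. With 1 library per group no test was made. Intervals are exact (Clopper-Pearson for ratios, Poisson for levels); no molecular identifiers are described, so intervals cover counting error only. Length, GC content, overlaps and positions come from GENCODE M21 (GRCm38), matched by Ensembl identifier for all 57 Rab genes; no mm9 coordinates were used. Of 223 symbols in the lists of regulators and other GTPases, 3 had no entry. Members, lists, thresholds and motifs were chosen with earlier results of these data known. Values are printed for Rab genes past 2-fold, the examples Rab7, Rab27a, Rab3d and Rab38, and the 3 highest per kilobase, with both levels of the other compared members; further folds were added after the values were seen; from each list of regulators at most the 3 compared genes with the largest log2 ratio in size are named, and Tcfe3 and Prelid1 in addition. Python 3.11.15, NumPy 2.4.6, pandas 2.3.3 and SciPy 1.17.1 were used, and the scripts were tested on simulated data.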

Additional observations from a re-analysis of the deposited data

How the results depend on the processing

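No paired analysis was possible because each group consisted of 1 library, which also left no replicate to omit. The call without a pseudocount and the count without genes sharing at least 5% of their exon bases were chosen after seeing the data.

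The number of Rab genes lower by at least 2-fold, 2 as reported, was 4 with a pseudocount of 0.1 and without one, 0 with a pseudocount of 5, and 1 each with a mean of at least 5, the median set to 0, a trimmed mean, equal sums, centring by GC content, and without the overlapping genes. With a mean of at least 5 that 1 gene was Rab24, as Rab13 fell under the limit, and with the other settings it was Rab13. The number higher was 0 as reported and 1 with each of the 3 scalings and with centring by GC content. The median of the Rab genes, -0.28 as reported, was -0.10 with the median set to 0, -0.10 with a trimmed mean, -0.022 with equal sums, -0.18 once centred by GC content and -0.12 without a filter, where genes near 0 enter by construction. Of all genes, 255 were higher and 603 lower with a pseudocount of 5, 674 and 684 with equal sums, and 547 and 682 once centred by GC content; 565 and 799 with the median set to 0 and 572 and 791 with a trimmed mean, against 445 and 1066 as reported. With a pseudocount of 0.1, 527 of 11126 compared genes were higher and 1327 lower, and without one 541 and 1362. With a mean of at least 5, 298 of 8900 compared genes were higher and 821 lower. The scalings shifted log2 ratios by 0.18, 0.19 and 0.29. Single Rab genes had another sign than reported in 33 values over the alternatives. Apart from what the construction of an alternative fixes, the cause was not tested.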

Other observations

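Among other small GTPases, the Ras gene Mras differed by more than any compared Rab on the log2 scale. The 16 compared Ras GTPases had a median log2 ratio of -0.14, and 3 were lower by 2-fold or more, or 18.8% against 9.58% of all compared genes. With each of the 3 scalings 1 was lower and 1 higher, and the median was 0.030 to 0.14. Of all 11126 compared genes, 684 to 799 were then lower and 565 to 674 higher. The lowest was Mras at 9.44 in Control and 0.3801 in MMP9_KO, 24.8-fold lower (15.1 to 43.9). Of 23 Arf and Arl GTPases 2 were lower, or 8.70% against 9.58%, with a median of -0.18. With equal sums 0 were lower, against 684 of all 11126 compared genes, and the median of the Arf and Arl genes was 0.044. Arl8b, which drives lysosomes outwards along microtubules, was 229.8 in Control and 97.7 in MMP9_KO, 2.35-fold lower (2.27 to 2.44), on 9247 and 4112 reads. The difference between these families and the Rab genes was not tested.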
